A study of Mus musculus with 8 samples.

Results

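The genes described here encode the 7 subunits of AMP-activated protein kinase (AMPK), its upstream kinase LKB1 (Stk11) and the NAD-dependent deacetylases Sirt1 and Sirt3. They were taken by name from tables of FPKM (fragment numbers divided by transcript length in kilobases and by M of fragments mapped, M for mega), and all 10 were found among 43239 distinct gene names. RNA came from quadriceps muscle of 8 female mice aged 6 months, with 1 library per mouse. Of these mice, 4 were labelled wild type (WT) and 4 were labelled Mss51-/- (KO). The strain, the kind of deletion at Mss51 and any litter, batch or lane are not given in the sources used here. The series title places the comparison in muscle metabolism and glucose homeostasis.

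AMPK is a heterotrimer of a catalytic alpha subunit, a scaffolding beta subunit that also binds glycogen, and a gamma subunit that binds adenine nucleotides. A rise in AMP or ADP over ATP favours phosphorylation of the alpha subunit by LKB1, after which the kinase turns on fuel uptake and oxidation and turns off synthesis. Sirt1, in the nucleus and cytosol, and Sirt3, in mitochondria, remove acyl groups from proteins at the cost of NAD and so couple protein acetylation to the redox state of the cell. Kinase and deacetylase activity are set largely after translation, and RNA levels do not measure them.

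Mss51 itself stood at 22.9, 37.0, 27.5 and 24.8 FPKM in the libraries labelled WT (replicates 1 to 4) and at 340, 201, 216 and 207 FPKM in those labelled KO. The targeted gene was thus higher where the label says knockout, and every direction below is that of the labels. A rough estimate from the spacing of low values put the depth at 38.0 to 59.8 M fragments per library. Muscle transcripts were high in all 8 libraries, with 9230 to 12716 FPKM of the creatine kinase Ckm. The troponin gene Tnnt3, a fast fibre marker, was listed at 0 in WT replicates 2 and 4 and KO replicates 1 and 3. In the other libraries it stood at 7955 to 8888 FPKM, and the fast fibre marker Tnni2 at 7550 to 11676 FPKM in all 8. Across 11878 genes whose mean reached 1 FPKM, limma called 6 genes, 0.0505% of those tested, all higher in the libraries labelled KO. Of the genes tested, 185 were listed at 0 in some library.

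None of the 10 genes passed the adjusted threshold of 0.05 in either direction in limma, with a smallest adjusted p of 0.336 (Sirt3). All 10 passed the filter on low values, so each was tested. At an unadjusted p under 0.05 there were 3, namely Sirt3 and Prkag1 higher and Prkab2 lower in the libraries labelled KO. In all genes tested, 10.3% had such a p, 7.50% with higher and 2.76% with lower values. Only for Sirt3 did the 4 values of one label lie wholly apart from the 4 of the other, a separation seen in 5.50% of all genes tested (3.89% with KO higher, 1.61% with KO lower). The log2 fold changes, KO minus WT on the scale of log2(FPKM + 0.5), ran from -0.42 to 0.46. Of the 10, 5 were above 0, and their median was 0.00 (0.0020). Among all genes tested 6464 of 11878 were above 0, with a median of 0.02.

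**Figure D1:**
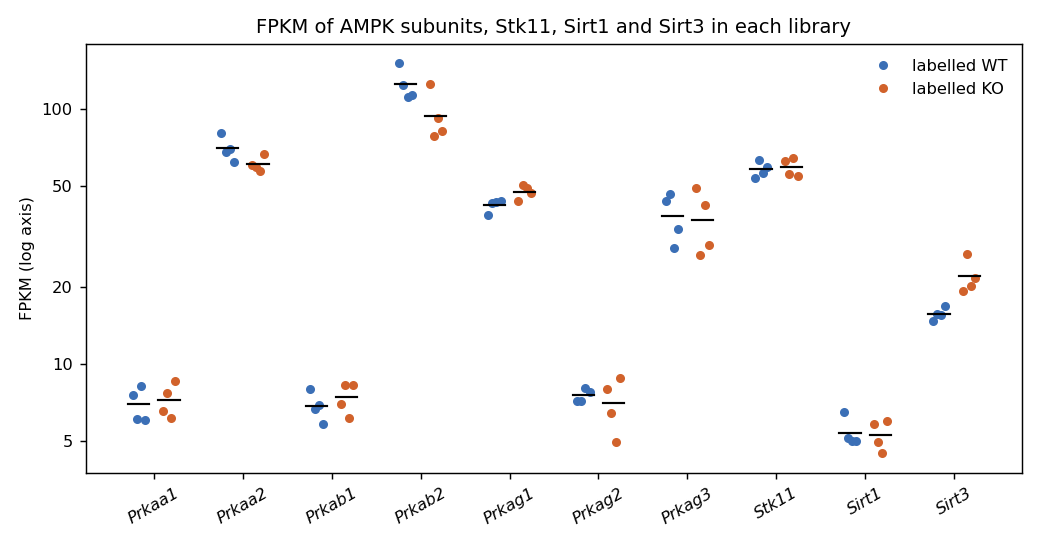
FPKM of the 10 genes on a log axis; each point is 1 library, blue for the label WT and orange for the label KO, and bars mark group means. Prkab2 is the highest of the 10 under both labels, and the KO values of Sirt3 (19.3 to 27.1) all lie above its WT values (14.8 to 16.9).

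The catalytic subunits are encoded by Prkaa1 (alpha1, widely expressed) and Prkaa2 (alpha2, the main form of adult skeletal muscle). Prkaa2 (ENSMUSG00000028518, chromosome 4, 105029874 to 105109890 of mm10, minus strand) stood at 81.0, 67.8, 69.6 and 62.4 FPKM in WT replicates 1 to 4 and at 60.3, 59.2, 57.3 and 66.5 FPKM in KO replicates 1 to 4. WT replicate 1 was the highest library, and the groups overlapped through WT replicate 4 and KO replicate 4. The means were 70.2 ± 7.84 and 60.8 ± 4.02 FPKM (SD, n = 4), with a log2 fold change of -0.20 (95% interval -0.41 to 0.0041; limma adjusted p = 0.498). Prkaa1 (ENSMUSG00000050697, chromosome 15, 5143861 to 5181899, plus strand) lay between 6.02 and 8.54 FPKM over the 8 libraries, with a log2 fold change of 0.05 (-0.26 to 0.36; limma adjusted p = 0.928). Neither catalytic gene passed the test, and both overlapped between the labels.

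Of the beta subunits, Prkab2 encodes the form that predominates in skeletal muscle and Prkab1 the form typical of liver. Prkab2 (ENSMUSG00000038205, chromosome 3, 97658193 to 97673812, plus strand) stood at 152, 125, 112 and 114 FPKM in WT replicates 1 to 4. In KO replicates 1 to 4 it stood at 125, 78.5, 92.4 and 82.1 FPKM. KO replicates 2, 3 and 4 lay below every WT library, while KO replicate 1 lay inside the WT range. The means were 126 ± 18.1 and 94.6 ± 21.3 FPKM (SD, n = 4), and the log2 fold change was -0.42 (SE 0.16, 95% interval -0.78 to -0.07; limma adjusted p = 0.424). Without KO replicate 1 it was -0.57, still short of the threshold (limma adjusted p = 0.0856). Prkab1 (ENSMUSG00000029513, chromosome 5, 116013586 to 116024508, minus strand) lay between 5.81 and 8.25 FPKM, with a log2 fold change of 0.10 (-0.18 to 0.38; limma adjusted p = 0.820).

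The gamma subunits are Prkag1, which is widely expressed, Prkag2, which is prominent in heart, and Prkag3, which is largely restricted to skeletal muscle and richest in fast glycolytic fibres. Prkag1 (ENSMUSG00000067713, chromosome 15, 98812797 to 98831521, minus strand) has no entry of its own in the tables. It is joined with Kmt2d, a histone methyltransferase gene of the same locus, and its value may hold fragments of both. A separate entry for Kmt2d alone lay between 0 and 1.51 FPKM. In the reference annotation an antisense RNA, B130046B21Rik, also covers 43.7% of the exonic bases of Prkag1, and no strand setting is given. The joined entry stood at 38.6, 42.7, 43.4 and 43.8 FPKM in WT replicates 1 to 4 and at 43.5, 50.4, 49.3 and 47.0 FPKM in KO replicates 1 to 4. The labels met at the edge, where KO replicate 1 lay just below WT replicate 4. The log2 fold change was 0.17 (SE 0.07, 95% interval 0.0089 to 0.34; limma adjusted p = 0.455). After rescaling to TPM, which gives named genes an equal sum in each library and moves the median of all genes from 0.02 to -0.18, it was -0.0382, or 0.14 above that median against 0.15 before.

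Prkag3 (ENSMUSG00000006542, chromosome 1, 74738922 to 74749221, minus strand) varied most within a label. It stood at 43.7, 46.4, 28.5 and 33.8 FPKM in WT replicates 1 to 4 and at 49.1, 26.8, 42.3 and 29.3 FPKM in KO replicates 1 to 4. Its coefficient of variation was 21.9% under WT and 28.7% under KO, the highest of the 10 genes in each. High and low libraries occurred under both labels, and the log2 fold change was -0.06 (95% interval -0.57 to 0.44; limma adjusted p = 0.944). The summed FPKM of 6 endothelial markers, for the same libraries in order, was 86.8, 76.9, 110 and 87.8 under WT and 72.0, 139, 87.5 and 121 under KO, so that the libraries with the lowest Prkag3 (WT replicate 3, KO replicates 2 and 4) had the highest endothelial sums. The macrophage marker sums were highest in the same 3 libraries, at 53.3, 53.0 and 55.2 FPKM. Both sets were picked after their values were seen, and other sets ranked the libraries otherwise. The fibroblast and tendon sum was lower in KO replicate 2 (731 FPKM) than in WT replicate 1 (786 FPKM). Erythroid and adipocyte sums were highest in KO replicate 1, at 3171 and 456 FPKM. The part of other cells in the spread of Prkag3 was not tested. In whole muscle, fewer cells of a type and less RNA per cell cannot be told apart.

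Prkag2 (ENSMUSG00000028944, chromosome 5, 24862744 to 25100642, minus strand) was low, at 7.14 to 8.03 FPKM under WT and at 8.01, 6.41, 4.92 and 8.81 FPKM in KO replicates 1 to 4. The wider KO range came from KO replicates 3 and 4, the lowest and the highest of all 8 libraries. Its log2 fold change was -0.12 (95% interval -0.48 to 0.24; limma adjusted p = 0.839). The antisense RNAs Prkag2os2 and Prkag2os1 cover 12.3% and 2.19% of its exonic bases.

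Stk11 (ENSMUSG00000003068, chromosome 10, 80115803 to 80130682, plus strand) encodes LKB1, the main kinase of the AMPK activation loop in muscle. It stood at 53.7, 63.2, 56.2 and 59.5 FPKM in WT replicates 1 to 4 and at 62.7, 55.7, 64.1 and 54.8 FPKM in KO replicates 1 to 4. The labels overlapped over nearly the whole range. The means of 58.2 ± 4.12 and 59.3 ± 4.74 FPKM (SD, n = 4) gave a log2 fold change of 0.03 (95% interval -0.16 to 0.21; limma adjusted p = 0.934).

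Of the deacetylases, Sirt3 (ENSMUSG00000025486, chromosome 7, 140863666 to 140882309, minus strand), the main deacetylase of the mitochondrial matrix, had the largest log2 fold change of the 10 genes. It stood at 14.8, 15.7, 15.6 and 16.9 FPKM in WT replicates 1 to 4 and at 19.3, 27.1, 20.3 and 21.7 FPKM in KO replicates 1 to 4. Every library labelled KO was above every library labelled WT, with KO replicate 2 the highest. The means were 15.8 ± 0.883 and 22.1 ± 3.50 FPKM (SD, n = 4). The log2 fold change was 0.46 (SE 0.11, 95% interval 0.22 to 0.71), 70 in the order of p among 11878 genes, and it did not pass the adjustment (limma adjusted p = 0.336). With single libraries left out the log2 fold change ran from 0.36 to 0.52. It was lowest without KO replicate 2 (limma adjusted p = 0.539) and highest without KO replicate 1 (limma adjusted p = 0.0866). The exons of Ric8a and Psmd13 on the other strand share 7.0% and 5.73% of the exonic bases of Sirt3, and without a stated strand setting their reads cannot be separated there. Psmd13 stood at 58.4 ± 2.83 FPKM under WT and 65.8 ± 6.73 under KO (SD, n = 4), and the entry Ric8 at 7.77 ± 0.772 and 8.53 ± 1.31.

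Sirt1 (ENSMUSG00000020063, chromosome 10, 63319005 to 63381704, minus strand) had the lowest FPKM of the 10 genes. It stood at 6.45, 5.12, 4.97 and 4.96 FPKM in WT replicates 1 to 4 and at 5.81, 4.92, 4.45 and 5.94 FPKM in KO replicates 1 to 4. The labels overlapped throughout, and the log2 fold change was -0.02 (95% interval -0.30 to 0.25; limma adjusted p = 0.963). The ratio of Sirt3 to Sirt1 in FPKM was 2.29 to 3.41 under WT and 3.32 to 5.52 under KO.

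**Figure D2:**
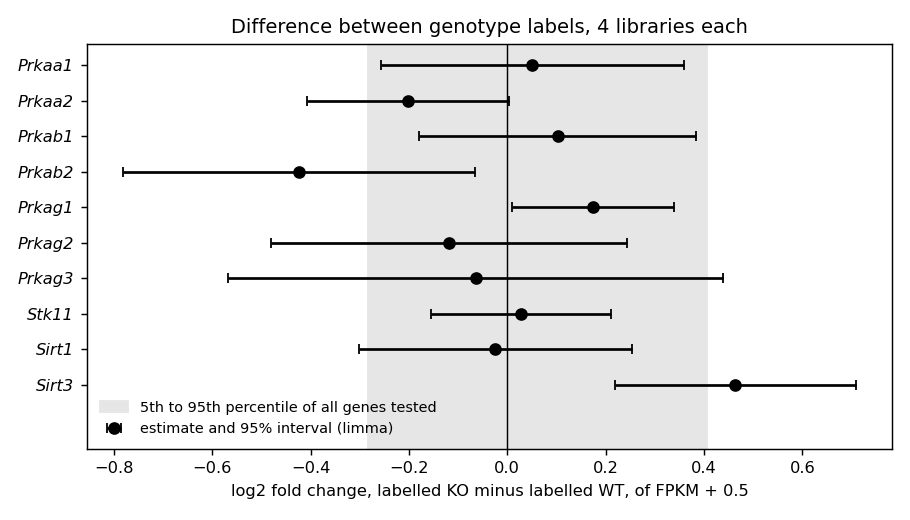
Log2 fold change (labelled KO minus labelled WT, of FPKM + 0.5) of the 10 genes with 95% intervals from limma, 4 libraries per label. Grey spans the 5th to 95th percentile of all 11878 genes (-0.28 to 0.41); the estimates for Prkab2 (-0.42) and Sirt3 (0.46) lie outside it, and no gene passed the adjusted threshold.

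The libraries that set Prkab2 apart also differed in fibre type transcripts. Myh2, the myosin of fast oxidative fibres, made up 25.6% to 28.4% of the FPKM of Myh1, Myh2 and the Myh7 entry under WT. The share was 27.5% in KO replicate 1, against 53.3%, 54.6% and 55.4% in KO replicates 2, 3 and 4. Other myosin genes were not part of this sum. A list of 10 slow and oxidative fibre markers summed to 2513 to 3109 FPKM under WT and to 2900 FPKM in KO replicate 1. In KO replicates 2, 3 and 4 it summed to 6689, 6093 and 6123 FPKM. Most of this was myoglobin (Mb), at 4704, 3645 and 4010 FPKM. The Myh7 entry, Tnni1 and Tnnc1 stayed inside their WT ranges in the same libraries. Of the 10 markers 9 had a log2 fold change above 0, and none was at 0 in any library. None passed the adjusted threshold, and 5 had an unadjusted p under 0.05 in limma. Prkab2 was lower, and Sirt3 higher, in those 3 libraries than in KO replicate 1. Sirt3 in KO replicate 1 (19.3 FPKM) was nonetheless above all 4 WT libraries, whereas its Myh2 share was inside the WT range. The part of fibre type in either gene was not tested, since the Myh2 share fell into separate clusters of fewer than 6 libraries.

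**Figure D3:**
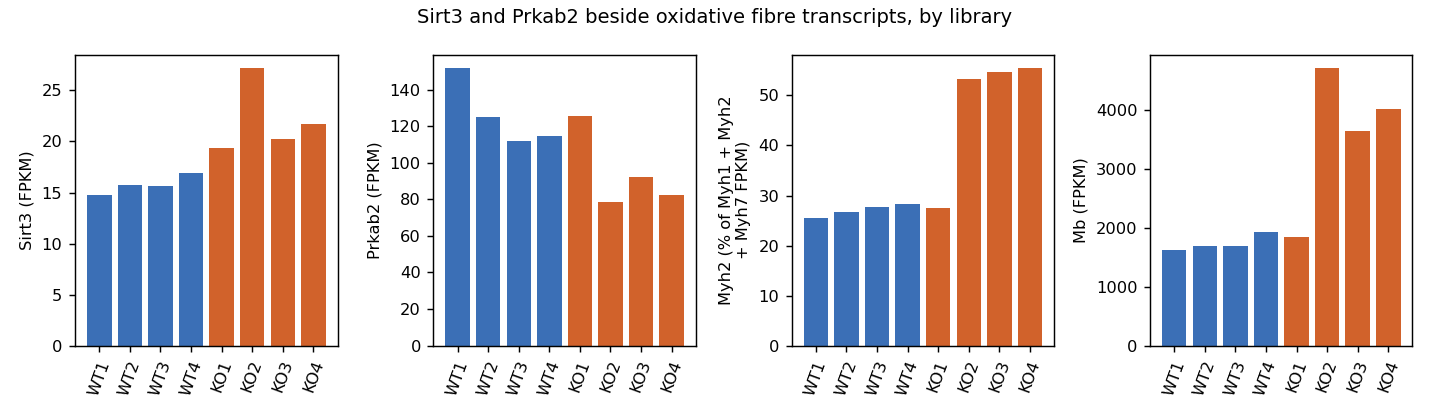
Values by library (label and replicate number, blue WT and orange KO) for Sirt3 and Prkab2 in FPKM, the Myh2 share in percent, and myoglobin (Mb) in FPKM. The Myh2 share is its part of the summed FPKM of Myh1, Myh2 and the Myh7 entry. KO replicate 1 lies with the WT libraries for Prkab2 (125), the Myh2 share (27.5%) and Mb (1838), and above them for Sirt3 (19.3).

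Markers of other cells were summed as well. Of 6 adipocyte markers 5 had a log2 fold change below 0 (median -0.41). At an unadjusted p under 0.05 in limma 3 were lower under KO, beside 2.76% of all genes tested. The sum of the 6 was 326 to 429 FPKM under WT and 283 to 456 under KO, most of it Cfd (218 to 336 FPKM). Leptin (Lep), picked after its values were seen, stood at 2.29 to 4.40 FPKM under WT. It stood at 2.79, 0.577, 0.324 and 0.353 FPKM in KO replicates 1 to 4. All 5 erythroid markers were above 0 (median 0.91), with sums of 508 to 1334 FPKM under WT and 652 to 3171 under KO. The 5 macrophage markers (40.3 to 53.3 against 34.1 to 55.2 FPKM) and the 7 fibroblast and tendon markers (691 to 825 against 541 to 824 FPKM) overlapped between labels. None of these markers passed the adjusted threshold, and their part in the values of the 10 genes was not tested.

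Within each class of AMPK subunit 1 or 2 genes carried most of the RNA. FPKM is per transcript length, so the levels of different genes can be set side by side. Prkaa2 made up 88.5% to 91.8% of the alpha subunit FPKM over the 8 libraries, which is 7.70 to 11.2 times the level of Prkaa1. Prkab2 made up 90.5% to 95.2% of the beta subunit FPKM, or 9.54 to 19.7 times Prkab1. The gamma class was split, with 43.1% to 60.2% in the Prkag1 entry, 32.1% to 48.9% in Prkag3 and 5.09% to 10.3% in Prkag2. The Prkag1 share is an upper value to the extent that the entry also counts Kmt2d.

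The share of Prkab2 lay between 94.2% and 95.2% in the 4 WT libraries and was 94.8%, 90.5%, 93.8% and 90.9% in KO replicates 1 to 4. KO replicates 2 and 4 were the lowest, and KO replicate 1 lay inside the WT range. The difference of means was -2.35 percentage points (exact permutation p = 0.0571, two-sided; 0.214 adjusted over the 5 shares tested). Prkaa2 had a share of 91.0 ± 1.04% under WT and 89.4 ± 0.981% under KO (SD, n = 4), a difference of -1.56 points (exact permutation p = 0.0857, adjusted 0.214). The smallest exact p that 4 against 4 libraries allow is 0.0286, so neither share reached it. To pass after adjustment over the 5 shares, several of them would have had to reach 0.0286 at once. That no share passed therefore tells little. In the gamma class the differences were 4.2 points for Prkag1, -0.871 for Prkag2 and -3.33 for Prkag3, with exact permutation p values of 0.429, 0.571 and 0.543 (each 0.571 after adjustment). The Prkag1 difference was 1.61 points without KO replicate 2 and 7.27 without KO replicate 1, and that of Prkag3 was -0.771 and -6.33 without the same libraries. A share does not depend on how a library is scaled. It does not tell a lower level of one isoform from a higher level of the other.

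**Figure D4:**
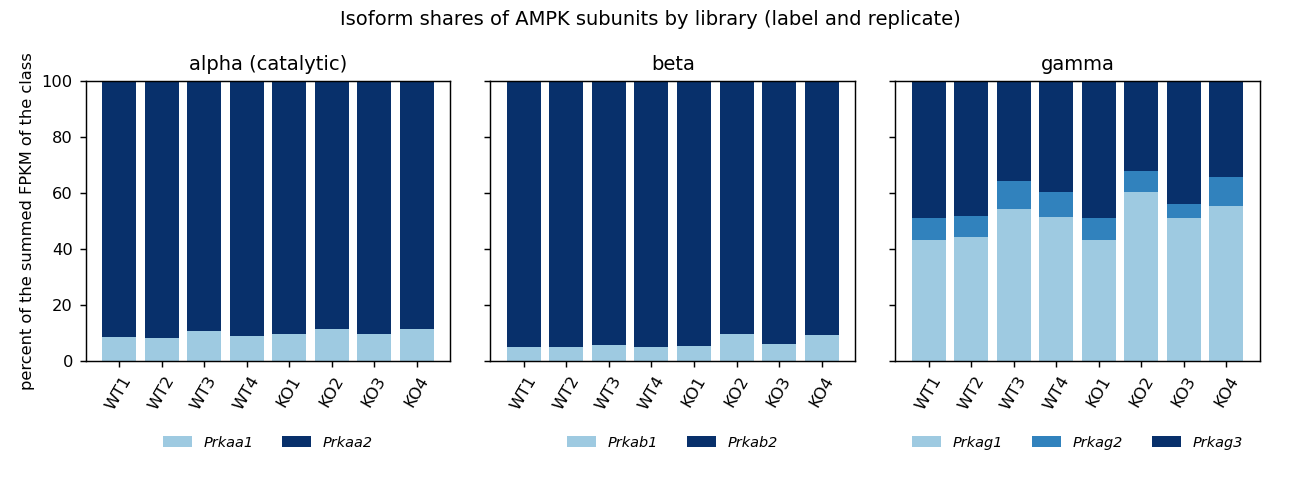
Share of each isoform in the summed FPKM of its subunit class, in percent, by library (label and replicate number). Prkaa2 and Prkab2 fill at least 88.5% of their classes in all 8 libraries, while Prkag2 fills at most 10.3% of the gamma class and Prkag1 and Prkag3 vary within both labels.

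Summed over isoforms, beta subunit RNA stood at 133 ± 18.8 FPKM under WT and 102 ± 20.8 under KO, alpha at 77.2 ± 8.54 and 68.0 ± 4.96, and gamma at 87.7 ± 6.87 and 91.4 ± 8.40 (SD, n = 4). No test was made on these sums. In order of mean FPKM the 10 genes ran Prkab2, Prkaa2, Stk11, Prkag1, Prkag3 and Sirt3 under both labels. The ranges of the neighbours Prkaa2 and Stk11, and of Prkag1 and Prkag3, overlapped under both labels. Those of Prkag3 and Sirt3 were apart under WT and overlapped under KO. Prkag2, Prkaa1, Prkab1 and Sirt1 followed at group means of 5.28 to 7.52 FPKM, with overlapping ranges between neighbours under each label. Set against all genes tested, the mean of Prkab2 exceeded that of 93.6% of genes and the mean of Sirt1 that of 36.3%.

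The promoter windows of Prkag3, Prkab2 and Sirt3 are shown because these 3 genes carry the contrasts above: Prkab2 the highest level, Prkag3 the widest spread within a label and Sirt3 the highest fold change. They are RefSeq windows of GRCm38.p6, the build named mm10, from 250 bases before to 50 bases after the annotated start, 5′ to 3′ on the gene's strand. Capitals mark CpG dinucleotides. The windows are chr1:74748906-74749205 (minus strand), chr3:97657962-97658261 (plus strand) and chr7:140882260-140882559 (minus strand, the more distal of 2 for Sirt3).
Prkag3: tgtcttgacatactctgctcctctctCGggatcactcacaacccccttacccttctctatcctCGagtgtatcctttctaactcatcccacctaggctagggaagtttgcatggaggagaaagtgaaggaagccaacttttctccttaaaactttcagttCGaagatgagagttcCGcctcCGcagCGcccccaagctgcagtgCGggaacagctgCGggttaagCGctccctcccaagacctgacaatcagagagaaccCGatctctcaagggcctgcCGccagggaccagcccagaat
Prkab2: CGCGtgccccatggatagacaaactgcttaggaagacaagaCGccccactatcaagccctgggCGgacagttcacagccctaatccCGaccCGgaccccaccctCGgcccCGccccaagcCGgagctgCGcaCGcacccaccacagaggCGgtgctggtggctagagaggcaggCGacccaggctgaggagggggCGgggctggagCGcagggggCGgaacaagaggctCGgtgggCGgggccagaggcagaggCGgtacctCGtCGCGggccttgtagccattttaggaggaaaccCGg
Sirt3: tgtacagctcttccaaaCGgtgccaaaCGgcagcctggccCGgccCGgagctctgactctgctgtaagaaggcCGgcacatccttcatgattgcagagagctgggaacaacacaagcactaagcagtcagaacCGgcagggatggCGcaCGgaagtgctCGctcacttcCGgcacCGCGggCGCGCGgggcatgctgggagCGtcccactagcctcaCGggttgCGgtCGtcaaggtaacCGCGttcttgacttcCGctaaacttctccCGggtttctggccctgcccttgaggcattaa

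The Prkag3 window held 11 CpG (observed to expected ratio 0.521), the Prkab2 window 23 (0.666) and the Sirt3 window 23 (0.825). Over 32851 RefSeq windows of this length the median was 7 CpG and a ratio of 0.384. Among the first windows of all 10 genes the ratio ran from 0.521 in Prkag3 to 1.17 in Stk11. The second window of Prkag2 was lower, at 0.316, and the Prkag3 ratio exceeded that of 59.3% of all windows. The GC box GGGCGG, sought on both strands and allowing overlap, occurred 5 times in the Prkab2 window and 0 times in those of Prkag3 and Sirt3 printed here, and 35.7% of all windows held it. The E-box CANNTG, which reads the same on both strands, occurred 1 time in Prkag3, 40 bases before the start, and 0 times in the other 2 windows; 72.3% of all windows held it. The second Sirt3 window (chr7:140881820-140882119, not printed) held 4 GC boxes and 1 E-box. The letters TNAAGGTCA, an element of estrogen-related receptors, were in none of the 3 windows on either strand and in 1.28% of all windows. These matches describe letters in the windows alone.

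No partner or regulator of AMPK passed the test. Of 16 listed genes 14 were tested and 0 passed in either direction, with 9 above 0 and a median log2 fold change of 0.05; 0 had an unadjusted p under 0.05 in limma. The 4 with the highest FPKM were Ppm1a, a phosphatase that can act on AMPK (93.8 ± 5.92 against 87.5 ± 6.70 FPKM, log2 fold change -0.10), Cab39, the MO25 scaffold of LKB1 (73.0 ± 1.63 against 78.6 ± 6.56, 0.10), and the LKB1 pseudokinases Stradb (0.02) and Strada, joined with Ccdc47 (-0.06). Adjusted p values of these 4 ran from 0.680 to 0.929.

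AMPK substrates likewise showed no call, with 0 of 20 tested genes past the threshold, 11 above 0 and a median of 0.01 (0.0059); 1 gene, Pfkfb2 joined with Gm29427, had an unadjusted p under 0.05 (0.40, limma adjusted p = 0.483). It was named after its value was seen. Among those of highest FPKM were Gys1, muscle glycogen synthase (138 ± 10.8 against 143 ± 19.2 FPKM, 0.04), Pnpla2, adipose triglyceride lipase (124 ± 11.2 against 144 ± 25.3, 0.20), and Mff, a receptor for mitochondrial fission (0.05). Acacb, the acetyl-CoA carboxylase of mitochondria and a classic AMPK substrate, is named as well, after its value was seen: it stood at 47.6 ± 1.83 against 50.7 ± 2.89 FPKM (SD, n = 4; 0.09).

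Of 12 other kinases that LKB1 activates, 8 were tested, 0 passed and 1 was above 0, with a median of -0.10. Snrk, a kinase related to AMPK, was the 1 above 0. It stood at 21.6, 16.8, 20.9 and 21.1 FPKM in WT replicates 1 to 4 and at 21.8, 22.2, 22.5 and 28.1 in KO replicates 1 to 4. All KO values of Snrk lay above all WT values, by a narrow margin (log2 fold change 0.23, limma adjusted p = 0.531). The other genes of highest FPKM were Mark3 (-0.10), Mark2 (-0.09), both kinases of microtubule-associated proteins, and Sik3, a salt-inducible kinase (-0.13). The lowest fold change was that of Sik1 (-0.61), named after its values were seen, which ran from 4.03 to 21.2 FPKM withunder WT.

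**Figure D5:**
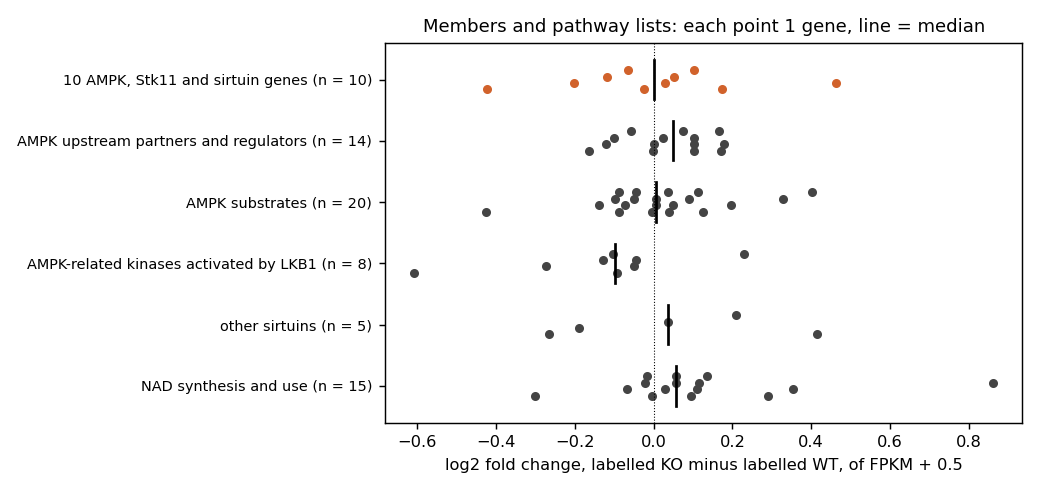
Log2 fold change (labelled KO minus labelled WT, of FPKM + 0.5) of each tested gene, as 1 point, in the 10 genes (orange) and in 5 lists of related genes; vertical lines mark medians. The medians lie between -0.10 and 0.06, and no gene shown passed the adjusted threshold.

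The other 5 sirtuins were all tested and 0 passed, with a median of 0.04. Sirt5, a mitochondrial enzyme that removes succinyl and malonyl groups, stood at 5.04, 5.12, 4.78 and 5.31 FPKM in WT replicates 1 to 4 and at 5.86, 7.15, 7.66 and 7.11 in KO replicates 1 to 4. Like Sirt3 it was higher in every KO library, with a log2 fold change of 0.42 (SE 0.09; limma adjusted p = 0.336). With single libraries left out this ran from 0.37 to 0.49, and it passed only without KO replicate 1 (0.49, limma adjusted p = 0.0403). Without that library 125 genes of the 11878 passed, 113 of them higher under KO. Sirt4, the third mitochondrial sirtuin, stood at 7.29 ± 1.01 against 8.54 ± 1.39 FPKM (0.21, limma adjusted p = 0.654), with overlapping labels. Sirt2, mainly cytosolic, had a log2 fold change of 0.04, and Sirt7, a nucleolar enzyme joined with Mafg, -0.19.

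Genes of NAD synthesis and use gave 0 calls among 15 tested, with 10 above 0 and a median of 0.06. At an unadjusted p under 0.05 in limma, 2 were higher and 1 lower under KO, beside 7.50% and 2.76% of all genes tested. Nampt, the rate-limiting enzyme of NAD salvage, stood at 52.8 ± 2.94 against 52.2 ± 2.30 FPKM (SD, n = 4; log2 fold change -0.02, 95% interval -0.17 to 0.13). Nmrk2, the nicotinamide riboside kinase of muscle, was spread from 23.2 to 49.4 FPKM under WT and from 33.4 to 75.4 under KO (0.29, limma adjusted p = 0.782). Its log2 fold change was 0.0246 without KO replicate 3 and 0.0923 without WT replicate 4. Nadk2, the mitochondrial NAD kinase, had a log2 fold change of 0.03. Parp1, a nuclear enzyme that consumes NAD, stood at 25.3 ± 2.26 against 20.6 ± 2.97 FPKM (-0.30; limma adjusted p = 0.424).

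The genes most like Prkaa2, Prkag3 and Sirt3 across libraries were sought by Pearson correlation of log2(FPKM + 0.5), centred within each label, over the 8 libraries and 11878 genes. With 8 points and this many genes, high values arise among unrelated genes, and they are given as a description. Prkaa2 was most like Isg20l2 (r = 0.990), the entry of Dgcr2 with Car15 and Gm20518 (0.987) and Ppp6c (0.983). Prkag3 was most like Vdac3 (0.978), a channel of the outer mitochondrial membrane, Egflam (0.971) and Mtap (0.967). Sirt3 was most like Hmcn2 (0.990), Tor1a (0.986) and Dpp3 (0.985). Libraries share their scaling within each of these correlations.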

How the data were processed

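RNA of 8 quadriceps samples, 4 labelled WT and 4 labelled KO, was analysed from FPKM that the authors deposited, 1 table per library. Per the labels' protocols, mRNA was enriched on oligo(dT) beads and read as pairs of 150 bases to a stated 50 M pairs. Per the submitters' processing notes, mm10, Cufflinks 2.2.1, Bowtie2 2.2.6, TopHat2 2.1.1 and FastQC were used; annotation, filters and strand setting are not given in the sources used here. Entries without a gene name (2379 of 46036) were left out. Of repeated names, the entry with the highest mean was kept. FPKM as deposited were tested as log2(FPKM + 0.5) for 11878 genes with a mean of at least 1, using limma 3.58.1 in R 4.3.3 (genotype alone, mean trend, two-sided, Benjamini-Hochberg over all genes tested). Isoform shares were compared by two-sided exact permutation over 70 assignments. Data were simulated for this comparison (11878 genes), with 67, 67 and 66 genes changed by a factor of 1.5, 2 and 4. Of these, 41.8%, 80.6% and 90.9% were called, with 7 false calls. The values were drawn independently, with no library set apart across genes, and the rates depend on how many genes are changed. They need not hold for the real data, where 6 genes were called. The depth estimate used 11433 genes with a single transcript and is rough; the files hold no counts, so no counting interval is given. The labels do not say more about separate animals than 1 library each. The limma p-values set the difference between labels against the spread of these libraries within a label.

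The 10 genes, the lists and the tests were chosen with earlier results of these data known. Named were Mss51, the 10 genes, of each list of related genes the 4 tested members with the highest mean FPKM and any member past the threshold, and the 3 genes most like each of 3 members; exceptions are marked where they stand. One gene that this rule picks is not reported here. Genes were placed with GENCODE M21, and promoter windows were matched by symbol for 10 of 10 genes. The planned correlation of isoform shares with the Myh2 share is not given, because the libraries fell into separate clusters. Settings varied were the filter, the pseudocount, the scaling, how repeated names and zeros were handled, the variance model, the replicate number as a block, a log2 ratio in place of the share, and each library left out. Acta1 and Cdh15, 2 of the listed markers, were not analysed here.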

Additional observations from a re-analysis of the deposited data

Results flagged for a closer look

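Single libraries stood apart from the other 3 of their label in 9 of the 98 groups of 4 values examined, where chance gives about 1 in 20. Among the 10 genes this concerned Sirt1 alone, with 6.45 FPKM in WT replicate 1 above the other WT libraries. In the related lists, KO replicate 1 was high for Strada (55.6 FPKM), KO replicate 4 for Nampt (55.6 FPKM) and KO replicate 3 for Nmrk2 (75.4 FPKM). Snrk was low in WT replicate 2 (16.8 FPKM) and high in KO replicate 4 (28.1 FPKM). KO replicate 1 stood apart from the other KO libraries in Mss51 (340 FPKM) and in the summed slow and oxidative fibre markers (2900 FPKM). It also did so in the Myh2 share of the FPKM of Myh1, Myh2 and the Myh7 entry (27.5%).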

How the results depend on the processing

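None of the 10 genes passed the threshold under any alternative run; the smallest adjusted p of any was 0.0856, without KO replicate 1. Sirt3 stayed above 0 (0.26 to 0.52) and Prkab2 (-0.64 to -0.33) and Prkaa2 (-0.41 to -0.13) below 0 throughout. The count of genes called over the whole table was 114 (60 higher, 54 lower) after rescaling to TPM, 0 with the replicate block (958 genes at an unadjusted p under 0.05) and 4 to 125 with single libraries left out, 125 being without KO replicate 1. The replicate numbers did not pair the samples (correlations of deviations -0.0809 to 0.00933, with 0 of 4 WT libraries most like their own number), and with the block Mss51 had an adjusted p of 0.0530. The relative TPM factors were 0.618 for WT replicate 3 and 0.413 for KO replicate 4, against 0.967 to 1.12 in the other libraries. TPM moved the median of all genes to -0.18, from 0.02. Relative to that median Sirt3 stood at 0.44, Prkab2 at -0.46 and Prkag1 at 0.14. Signs that changed under TPM were those of Prkaa1 (-0.15), Prkab1 (-0.10), Prkag1 (-0.0382), Stk11 (-0.18), Cab39 (-0.11), Stradb (-0.19), Gys1 (-0.18), Pnpla2 (-0.0175), Mff (-0.16), Sirt2 (-0.18) and Nadk2 (-0.18). With quantile normalization they were Stk11 (-0.0081), Stradb (-0.0144), Gys1 (-0.0566), Mff (-0.0091) and Sirt2 (-0.0090), and with the median of ratios Stradb (-0.0022). With single libraries left out, signs changed within the ranges of Prkaa1 (-0.0281 to 0.13), Prkag2 (-0.23 to 0.0301), Prkag3 (-0.22 to 0.0712), Stk11 (-0.0103 to 0.0684), Sirt1 (-0.0790 to 0.0597), Gys1 (-0.0190 to 0.12), Sirt2 (-0.0019 to 0.0762) and Nampt (-0.0495 to 0.0136). The difference in the share of Prkag2 ran from -1.73 to 0.0199 points. No isoform share passed under any alternative. With all 8 libraries, several of the 5 shares would have had to reach the smallest exact permutation p at once to pass after adjustment. With the replicate block the smallest possible exact permutation p is 0.125, so that no share could have passed. The adjusted p of the Prkaa2 and Prkab2 shares from that permutation was 0.625. The causes were not tested.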

Other observations

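Nnt, the mitochondrial transhydrogenase that makes NADPH from NADH, had the highest log2 fold change of the NAD list (0.86; limma adjusted p = 0.431) and was picked after its values were seen. It lay between 10.1 and 16.2 FPKM in the 4 WT libraries and stood at 11.7, 30.4, 32.2 and 35.4 FPKM in KO replicates 1 to 4. KO replicate 1 lay inside the WT range, as it did for Prkab2 and the Myh2 share.

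For Sirt3 (19.3 FPKM), Sirt5 (5.86 FPKM) and Snrk (21.8 FPKM), KO replicate 1 lay above all 4 WT libraries and was the lowest of the 4 KO libraries. For Sirt4, also a mitochondrial sirtuin, KO replicate 1 (6.71 FPKM) lay inside the WT range of 5.88 to 8.08 FPKM.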
